A study of Mus musculus with 12 samples.

Results

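Mitosis genes were described here in follicular B cells from the mouse spleen, as a set of 40 genes named for entry into and passage through mitosis. The array held 37163 entries, of which 20018 were mouse symbols and the rest were probe targets without a matched symbol. Each member was matched through the RefSeq accession of its probes to its mouse symbol and was represented by its brightest probe over the 12 arrays. All 40 members had a probe, and 37 of them passed the filter on dim probes and entered the fit, which held 22742 entries. Of these 13135 had a symbol. Shares of all genes below are over all 22742 entries, with or without a symbol. The 40 fall into 8 roles, from the kinases and cyclins that start mitosis to the proteins that close the cell division.

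Per the labels the mice were male C57BL/6J, either wild type (WT) or without Bach2 (Bach2-/-), a transcriptional repressor of B cells. RNA was taken at 0 h or 24 h after addition of anti-IgM Fab' at 10 µg/mL, an antibody fragment that engages the B cell receptor. The 4 groups, WT 0 h, WT 24 h, Bach2-/- 0 h and Bach2-/- 24 h, held 3 one-colour arrays each, and the series asks why follicular B cells without Bach2 proliferate poorly after this stimulus. No 24 h culture without anti-IgM was among the samples, so time in culture and the stimulus cannot be told apart. The labels give the genotype with no Cre or cell type restriction named, and they do not say whether the 3 arrays of a group came from separate animals or cultures, so p-values cover the spread among these samples alone, which may be technical.

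A resting follicular B cell is out of the cell cycle, and B cell receptor engagement drives it through G1 and DNA replication before it reaches mitosis. Cyclin B with the kinase CDK1 starts mitosis, Polo-like and Aurora kinases build the spindle, and the spindle checkpoint holds the anaphase-promoting complex (APC/C) until every kinetochore is attached. Transcripts of this set peak late in the cycle in proliferating cells, under the MuvB complex with B-Myb and FOXM1, and the same complex in its repressive form (DREAM) keeps them low in quiescence.

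Signals are given as log2 of the processed signal over the 75th percentile of its array, so that 0 is the level of that percentile and a difference of 1 is a doubling. Array 1 of each group lay on slide 2 and arrays 2 and 3 on slide 1. Bach2-/- 24 h arrays 2 and 1 were the dimmest and the brightest, with a 75th percentile of 97.3 and 358, and 50.9% to 66.7% of spots exceeded background clearly. Precision is limited by the 3 arrays a group. The Bach2 probe detected on all arrays gave 3.06 to 3.79 on the 6 WT arrays and -1.01 to 1.11 on the 6 Bach2-/- arrays. A second Bach2 probe was well above background on the 6 WT arrays and on none of the Bach2-/- arrays. The library labelled Bach2-/- 0 h array 1 had no signal above the floor for the Y-linked genes Ddx3y and Eif2s3y, against its label, while Xist was well above background by both its probes on all 4 arrays of slide 2 and on Bach2-/- 0 h array 3 of slide 1, which had the Y-linked signals, and by 1 probe on WT 24 h array 2. Array 1 of Bach2-/- 0 h and the dim Bach2-/- 24 h array 2 are called the doubted arrays, and values without both are given beside the results they move. B cell markers (12 genes) were detected on all arrays, with a summed log2 signal of 10.8 to 11.4 at 0 h and 9.57 to 10.3 at 24 h.

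Promoters of the members share letters that the choice of members did not use. Of the 33 members with an entry in the RefSeq promoter table (GRCm38.p6, 250 bases before to 50 after the start), 26 held TTTGAA, the core of the cell cycle genes homology region, on either strand. That is 78.8%, against 18.1% of 27025 promoters of the same length. CCAAT, the NF-Y motif, on either strand was also in 26 of the 33, or 78.8% against 37.9%, and at least 2 copies were in 54.5% against 12.2%. Both motifs stood together in 69.7% of the members and in 7.12% of all promoters. Among 117 other mitosis genes with an entry, 39.3% held TTTGAA, 57.3% CCAAT, 32.5% at least 2 copies of it and 27.4% both motifs. Among 32 genes of DNA replication, 12.5% held TTTGAA, 65.6% CCAAT, 43.8% at least 2 copies and 9.38% both motifs. A match is a description of the letters, not a binding site. Ccna2, Cdc25c, Foxm1, Aurkb, Incenp, Tpx2 and Kif20a had no entry.

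Shown are the promoters of the members that passed the genotype test at 24 h (Ube2c and Ccnb2), of Plk1, whose Bach2-/- arrays lay above WT at both times, and of Cenpa, whose Bach2-/- arrays lay below the same-numbered WT arrays. They are written 5′ to 3′ along the gene in GRCm38.p6, with TTTGAA and CCAAT on either strand in capitals (TTCAAA and ATTGG are their reverse complements).
Ube2c, chr2:164769679-164769978, plus strand: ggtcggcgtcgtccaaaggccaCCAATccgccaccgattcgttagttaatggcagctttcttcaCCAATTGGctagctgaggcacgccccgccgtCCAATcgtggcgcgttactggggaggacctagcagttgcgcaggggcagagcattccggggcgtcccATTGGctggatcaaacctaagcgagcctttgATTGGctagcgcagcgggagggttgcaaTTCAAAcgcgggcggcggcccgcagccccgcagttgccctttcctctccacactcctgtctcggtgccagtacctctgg
Ccnb2, chr9:70421505-70421804, minus strand: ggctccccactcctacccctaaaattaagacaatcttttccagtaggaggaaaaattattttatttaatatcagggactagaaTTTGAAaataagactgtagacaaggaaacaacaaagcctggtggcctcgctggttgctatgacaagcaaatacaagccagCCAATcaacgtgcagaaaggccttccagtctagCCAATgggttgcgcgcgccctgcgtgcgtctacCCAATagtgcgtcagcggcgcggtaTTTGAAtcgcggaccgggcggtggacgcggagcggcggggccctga
Plk1, chr7:122159185-122159484, plus strand: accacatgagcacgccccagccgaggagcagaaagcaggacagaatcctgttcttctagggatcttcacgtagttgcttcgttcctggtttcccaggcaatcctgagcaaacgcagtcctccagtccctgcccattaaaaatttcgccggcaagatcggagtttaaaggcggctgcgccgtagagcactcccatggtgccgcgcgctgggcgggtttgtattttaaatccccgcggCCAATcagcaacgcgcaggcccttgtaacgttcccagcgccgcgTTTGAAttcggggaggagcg
Cenpa, chr5:30666636-30666935, plus strand: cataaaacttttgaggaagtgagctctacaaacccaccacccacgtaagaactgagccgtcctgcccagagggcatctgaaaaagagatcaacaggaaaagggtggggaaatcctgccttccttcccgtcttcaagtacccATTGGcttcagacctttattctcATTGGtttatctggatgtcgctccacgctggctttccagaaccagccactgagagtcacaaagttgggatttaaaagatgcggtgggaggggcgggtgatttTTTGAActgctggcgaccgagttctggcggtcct
The Ube2c window held 1 TTTGAA, on the opposite strand, and 6 CCAAT on both strands. The Ccnb2 window held 2 TTTGAA and 3 CCAAT, Plk1 1 of each, and Cenpa 1 TTTGAA and 2 CCAAT. All 4 held both motifs, as did 69.7% of the members with an entry. These 4 were picked by their values, and a link between motifs and the direction of the difference was not tested.

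The first question was whether the mitosis genes differ between the genotypes at 0 h. Most members were higher in Bach2-/- cells: 32 of 37 had a fitted difference above 0, against 54.2% of all genes tested, and their median was 0.72 on the log2 scale, against 0.03 over all genes. No member passed the test (limma, Benjamini-Hochberg adjusted p under 0.05 over 22742 genes), which 0.748% of all genes passed. At an unadjusted p under 0.05, 15 members were higher and 0 lower, against 4.17% of all genes higher and 2.28% lower. All 3 Bach2-/- arrays lay above all 3 WT arrays for 20 members, and none lay wholly below, against 7.69% and 5.03% of all genes. In bulk RNA, fewer cells of a type and less RNA per cell cannot be told apart. Adding the replicate number to the fit as a block (same-numbered arrays deviated together) let 4 members pass, all higher, Birc5, Bub1, Ccnb2 and Ube2c, while 2.81% of all genes were higher and 0.919% lower (3.73% in all). The median was 0.60 on slide 1 and 0.94 on slide 2, and 32 members were above 0 on both slides, against 37.4% of all genes. Without the doubted arrays the median was 0.54 and 0 members passed (0.532% of all genes did), and without Bach2-/- 0 h array 3 the median was 0.93 and 0 passed.

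At 24 h the difference had the same direction for most members. Of 37, 32 were above 0, against 45.7% of all genes, and the median was 0.59 on the log2 scale, against -0.06 over all genes. Ube2c and Ccnb2 passed the test, both higher in Bach2-/- cells (3.21% of all genes passed, 2.26% higher). With the replicate block, 10 members were higher and 1 lower, against 8.13% and 11.5% of all genes (19.7% in all). At an unadjusted p under 0.05, 14 members were higher and 1 lower, against 6.83% and 6.53% of all genes. The 10 past the blocked test were Ube2c, Ccnb2, Prc1, Plk1, Kif2c, Nusap1, Mki67, Kif20a, Birc5 and Ccna2, and the lower one was Cenpa. Non-overlapping arrays were seen for 7 members higher and 0 lower, against 7.72% and 8.62% of all genes. The median was 0.48 on slide 1 and 0.67 on slide 2, and 0.85 without the doubted arrays, where 5 members passed, all higher (2.04% of all genes were higher and 0.677% lower, 2.72% in all). Without the block, 0 members passed without WT 24 h array 2 or without Bach2-/- 24 h array 3.

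**Figure D1:**
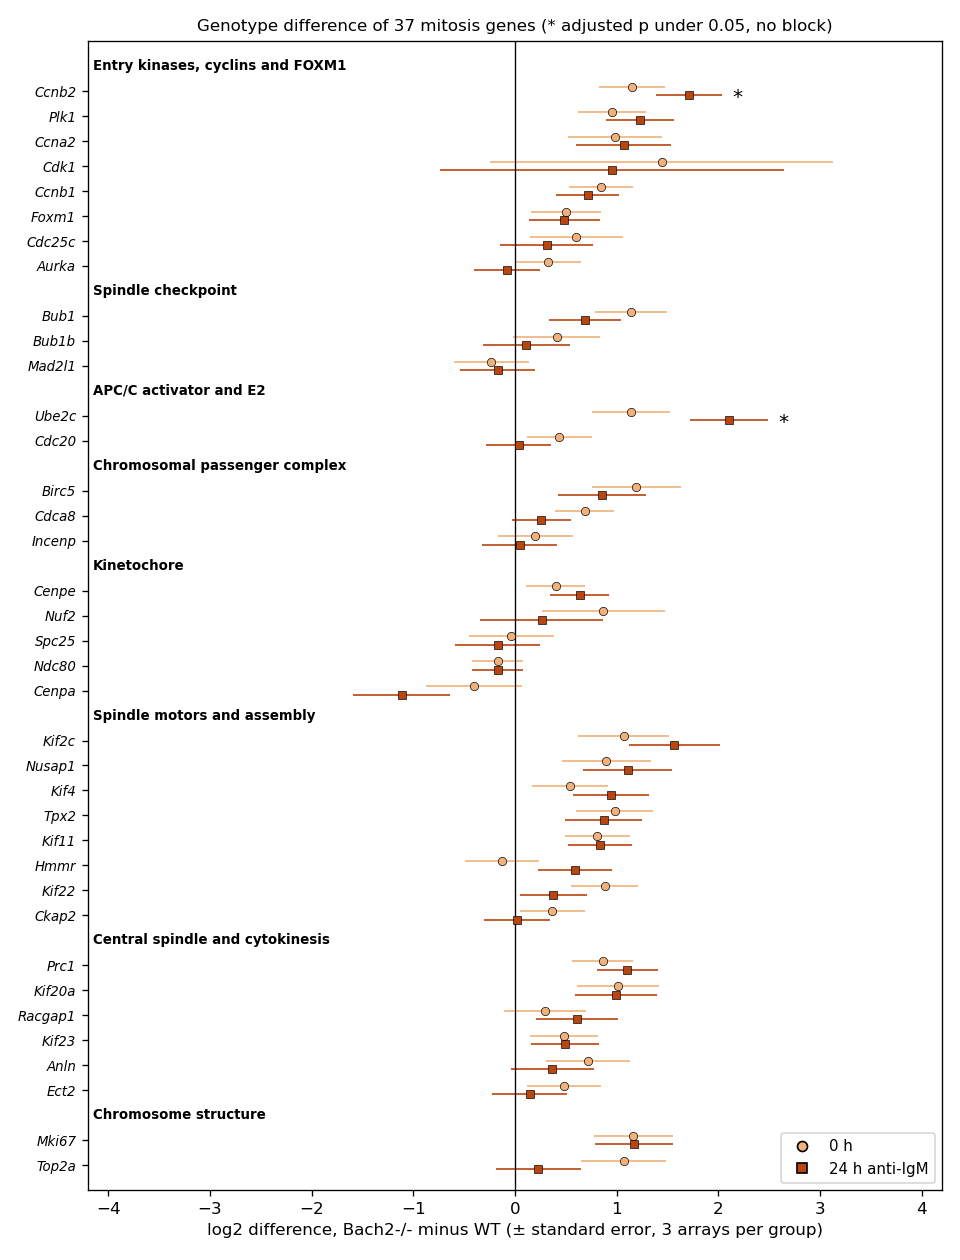
Fitted log2 difference between Bach2-/- and WT cells (x axis) for the 37 members tested, grouped by role (y axis), at 0 h (circles) and 24 h (squares). Bars are standard errors with 3 arrays a group, and asterisks mark Ube2c (2.10) and Ccnb2 (1.71), which passed the test at 24 h. Most points lie right of 0, and Cenpa, at -1.12, lies farthest to the left at 24 h.

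The differences at 0 h and 24 h rest on different arrays. Across the 37 members they had a Pearson r of 0.76, with 31 members above 0 at both times and 4, Mad2l1, Cenpa, Ndc80 and Spc25, below 0 at both. The points share probes, slides and the normalization, and members are not independent replicates. Probes of a gene disagreed in the sign of the genotype difference for 2 of the 12 members with several tested probes at 0 h (Cdk1 and Tpx2) and for 2 at 24 h (Cdca8 and Incenp).

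Entry kinases, cyclins and FOXM1 (8 members, all tested) ranged from 0.33 to 1.44 at 0 h and from -0.07 to 1.71 at 24 h between genotypes. Ccnb2 encodes cyclin B2, a partner of CDK1. In WT cells Ccnb2 gave 1.24, 0.70 and 0.56 at 0 h and -0.56, -0.77 and -0.08 at 24 h (arrays 1, 2 and 3). In Bach2-/- cells the values were 2.51, 1.62 and 1.83 at 0 h and 1.23, 0.83 and 1.65 at 24 h. Every Bach2-/- array was above every WT array of its time, and the WT arrays at 24 h were the lowest of all. At 24 h Ccnb2 was higher by 1.71 ± 0.33 (SE), 3.27-fold, in Bach2-/- cells (limma adjusted p 0.0154, 0.00202 with the block), by 1.67 on slide 1 and 1.80 on slide 2. At 0 h the difference was 1.15 ± 0.33 (limma adjusted p 0.236, 0.0336 with the block).

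Ccna2, cyclin A2, which acts in S phase and in entry into mitosis, gave 0.10, -0.86 and -0.49 in WT cells at 0 h and -0.01, -0.62 and 0.43 at 24 h. The Bach2-/- values were 1.17, 0.37 and 0.17 at 0 h and 1.41, -0.01 and 1.60 at 24 h. Groups were apart at 0 h and overlapped at 24 h, through Bach2-/- array 2, where the difference was 1.07 ± 0.47 (limma adjusted p 0.345, 0.0383 with the block). Plk1, the Polo-like kinase, gave 0.35, 0.42 and 0.53 in WT cells and 1.50, 1.38 and 1.31 in Bach2-/- cells at 0 h. At 24 h the values were 0.04, -0.13 and 0.73 in WT cells and 1.30, 0.84 and 2.18 in Bach2-/- cells. The genotypes did not overlap at either time, with a difference of 0.96 ± 0.33 at 0 h and 1.23 ± 0.33 at 24 h (limma adjusted p 0.453 and 0.0841, with the block 0.0722 and 0.0106).

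Ccnb1, cyclin B1, gave -0.47, -0.73 and -0.57 in WT cells and 0.47, 0.21 and 0.10 in Bach2-/- cells at 0 h. At 24 h it gave 0.21, -0.26 and 0.42 in WT cells and 0.72, 0.28 and 1.51 in Bach2-/- cells. Bach2-/- arrays lay above WT at 0 h, by 0.85 ± 0.31, and overlapped with WT at 24 h, where the difference was 0.71 ± 0.31 (limma adjusted p 0.528 and 0.348). Foxm1, the transcription factor of late cycle genes, gave -1.61, -1.95 and -1.82 in WT cells and -0.76, -1.60 and -1.52 in Bach2-/- cells at 0 h. At 24 h Foxm1 gave -0.68, -1.17 and -1.04 in WT cells and 0.12, -1.19 and -0.35 in Bach2-/- cells. By this probe the Foxm1 genotype difference was about as large at both times, 0.50 ± 0.35 and 0.49 ± 0.35, and passed neither test, block included (limma adjusted p 1.00 and 0.613, with the block 0.227 and 0.106). A dimmer Foxm1 probe, well above background on all 12 arrays, differed by 1.13 at 0 h and 0.47 at 24 h.

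Cdk1, the kinase at the centre of mitotic entry, could be read poorly. Its brightest probe gave -6.64, -4.73, -3.93 and -3.47 on the 4 slide 2 arrays, in the order WT 0 h, WT 24 h, Bach2-/- 0 h and Bach2-/- 24 h, the first of them at the floor. On slide 1, WT arrays 2 and 3 gave -1.75 and -1.49 at 0 h, then -0.96 and 0.08 at 24 h. Bach2-/- arrays there gave -0.75 and -0.89 at 0 h, then -0.44 and 1.17 at 24 h. The slides were thus apart by 3.11 to 5.02 within a group, against 1.56 or less in any group for every other tested member. The standard error of its differences was 1.69, and within slide 1 Bach2-/- was above WT by 0.81 at 0 h and 0.80 at 24 h. Another Cdk1 probe, well above background on all 12 arrays, differed by -0.16 at 0 h and 0.02 at 24 h. Cdc25c, the phosphatase that activates CDK1, was well above background on 8 of 12 arrays, and Aurka, the Aurora kinase of spindle poles, differed by 0.33 ± 0.32 at 0 h and -0.07 ± 0.32 at 24 h.

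**Figure D2:**
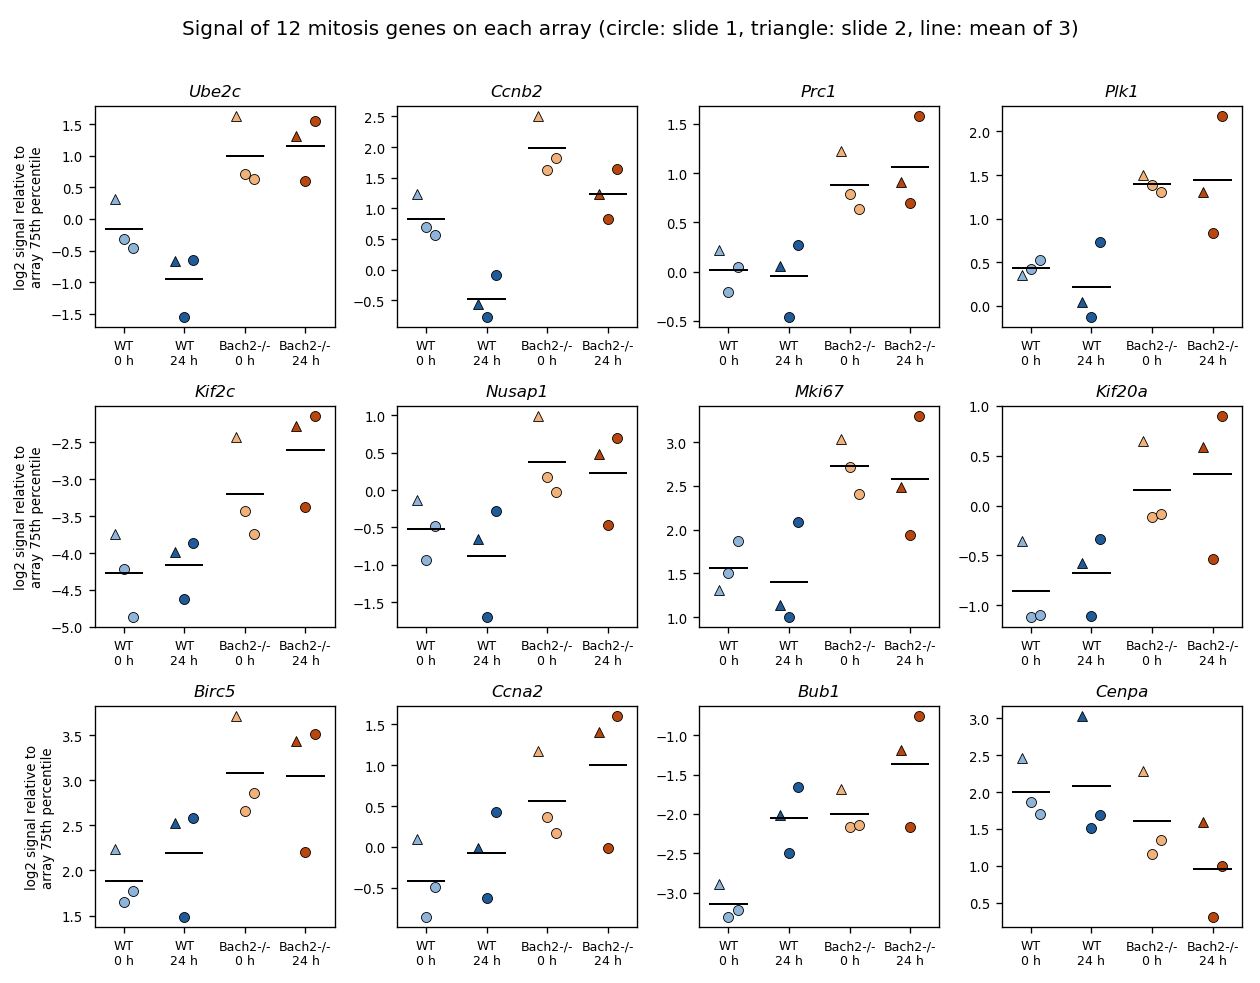
Log2 signal relative to the array's 75th percentile (y axes, own scale for each gene) of the 12 members that passed a genotype test with or without the replicate block, on each array of the 4 groups (x axes). Circles are slide 1, triangles slide 2 and lines the mean of 3 arrays. Ube2c and Ccnb2 at 24 h show Bach2-/- arrays at 0.60 and 0.83 or above and WT arrays at -0.08 or below, and Cenpa shows the opposite order of group means.

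The APC/C is represented by Ube2c, the E2 enzyme that starts its ubiquitin chains, and by Cdc20, its activator. Ube2c gave 0.31, -0.31 and -0.46 in WT cells at 0 h and -0.66, -1.55 and -0.65 at 24 h. In Bach2-/- cells Ube2c gave 1.63, 0.71 and 0.63 at 0 h and 1.31, 0.60 and 1.55 at 24 h. Genotypes were apart at both times, and WT signals were lower at 24 h than at 0 h on each numbered pair of arrays. Ube2c was higher in Bach2-/- cells by 2.10 ± 0.38 at 24 h, 4.30-fold (limma adjusted p 0.0118, 0.000646 with the block), by 2.17 on slide 1 and 1.97 on slide 2. Its other probe gave 2.03 at 24 h and 1.21 at 0 h, where the main probe differed by 1.14 ± 0.38 (limma adjusted p 0.413, 0.0369 with the block). Cdc20 differed by 0.44 ± 0.32 at 0 h and 0.04 ± 0.32 at 24 h, and neither passed.

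Of the spindle checkpoint (Bub1, Bub1b, Mad2l1 and Ttk), Bub1, a kinase at unattached kinetochores, differed most between genotypes. Bub1 gave -2.89, -3.31 and -3.22 in WT cells and -1.69, -2.17 and -2.14 in Bach2-/- cells at 0 h. At 24 h it gave -2.01, -2.49 and -1.66 in WT cells and -1.19, -2.16 and -0.76 in Bach2-/- cells. At 0 h the groups were apart by 1.14 ± 0.36 (limma adjusted p 0.330, 0.0334 with the block), and at 24 h they overlapped, with 0.69 ± 0.36 (limma adjusted p 0.456). Bub1b, which encodes BubR1, gave -1.15, -1.93 and -1.85 in WT cells and -0.64, -1.46 and -1.60 in Bach2-/- cells at 0 h, and 0.29, -0.60 and 0.00 against 0.75, -0.83 and 0.11 at 24 h. The genotypes overlapped at both times for Bub1b, and Mad2l1 differed by -0.23 ± 0.37 and -0.17 ± 0.37. Ttk, the MPS1 kinase, was well above background on 4 of 12 arrays and was not tested.

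The chromosomal passenger complex holds Aurkb, the Aurora B kinase, with Birc5 (survivin), Incenp and Cdca8 (borealin). Birc5 gave 2.24, 1.65 and 1.77 in WT cells and 3.71, 2.66 and 2.86 in Bach2-/- cells at 0 h. At 24 h Birc5 gave 2.52, 1.48 and 2.58 in WT cells and 3.43, 2.20 and 3.51 in Bach2-/- cells. Groups were apart at 0 h, by 1.19 ± 0.43, and overlapped at 24 h through Bach2-/- array 2, with 0.85 ± 0.43 (limma adjusted p 0.514 and 0.446, with the block 0.0245 and 0.0348). Aurkb was at the floor of -6.64 on all 4 slide 2 arrays and between -5.37 and -3.58 on slide 1, above background on 3 arrays, so it was not tested. On slide 1 WT cells gave -5.37 and -5.21 at 0 h, then -5.01 and -3.58 at 24 h, and Bach2-/- cells gave -4.95 and -3.93 at 0 h, then -4.04 and -3.85 at 24 h. Cdca8 differed by 0.68 ± 0.29 at 0 h and 0.26 ± 0.29 at 24 h, and Incenp by 0.20 ± 0.37 and 0.05 ± 0.37, none past the test.

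Kinetochore members had genotype differences on both sides of 0, from -0.40 to 0.87 at 0 h and -1.12 to 0.64 at 24 h. Cenpa encodes the histone H3 variant that marks centromeres. In WT cells Cenpa gave 2.46, 1.86 and 1.70 at 0 h and 3.03, 1.51 and 1.69 at 24 h. In Bach2-/- cells it gave 2.29, 1.16 and 1.35 at 0 h and 1.60, 0.30 and 0.99 at 24 h. Each Bach2-/- array was below the WT array of its number at both times, but the 24 h groups overlapped across slides, and the difference was -1.12 ± 0.48 (limma adjusted p 0.330, 0.00551 with the block). Within slide 1 it was -0.96 and on slide 2 -1.43. Cenpe, a kinetochore motor, was higher on every Bach2-/- array at both times, by 0.40 ± 0.29 and 0.64 ± 0.29 (limma adjusted p 1.00 and 0.369). The NDC80 complex members Ndc80, Nuf2 and Spc25 ranged from -0.17 to 0.87 at 0 h and -0.17 to 0.26 at 24 h. Cenpf was well above background on no array.

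Spindle motors and assembly factors (8 members) ranged from -0.13 to 1.07 at 0 h and from 0.02 to 1.57 at 24 h. Kif2c, a microtubule-depolymerising kinesin of centromeres, gave -3.74, -4.21 and -4.87 in WT cells and -2.43, -3.43 and -3.74 in Bach2-/- cells at 0 h. At 24 h Kif2c gave -3.99, -4.63 and -3.87 in WT cells and -2.27, -3.38 and -2.14 in Bach2-/- cells, and it was well above background on 8 of the 12 arrays. Its 24 h groups did not overlap and differed by 1.57 ± 0.45 (limma adjusted p 0.102, 0.0141 with the block). Nusap1, which bundles spindle microtubules, gave -0.14, -0.94 and -0.48 in WT cells and 0.99, 0.17 and -0.03 in Bach2-/- cells at 0 h. Its 24 h values were -0.65, -1.70 and -0.28 in WT cells and 0.48, -0.47 and 0.69 in Bach2-/- cells. Nusap1 groups were apart at 0 h and overlapped at 24 h, by 1.11 ± 0.44 there (limma adjusted p 0.285, 0.0241 with the block). Of the remaining kinesins and spindle proteins, Kif11, Kif4, Kif22, Tpx2, Hmmr and Ckap2, none passed at either time, with 24 h differences from 0.02 (Ckap2) to 0.95 (Kif4).

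The central spindle and cytokinesis members ranged from 0.29 to 1.01 at 0 h and from 0.15 to 1.11 at 24 h, so all 6 were above 0 at both times. Prc1, which bundles the microtubules of the central spindle, gave 0.22, -0.21 and 0.05 in WT cells and 1.22, 0.79 and 0.64 in Bach2-/- cells at 0 h. At 24 h Prc1 gave 0.06, -0.46 and 0.27 in WT cells and 0.91, 0.70 and 1.58 in Bach2-/- cells. Bach2-/- arrays lay above WT arrays at both times, by 0.86 ± 0.30 and 1.11 ± 0.30 (limma adjusted p 0.443 and 0.081, with the block 0.0701 and 0.0101). Kif20a, a kinesin that brings PLK1 to the central spindle, gave -0.36, -1.12 and -1.10 in WT cells and 0.65, -0.11 and -0.08 in Bach2-/- cells at 0 h. At 24 h Kif20a gave -0.58, -1.11 and -0.34 in WT cells and 0.59, -0.54 and 0.90 in Bach2-/- cells, and Bach2-/- array 2 overlapped with WT (0.99 ± 0.40, limma adjusted p 0.297, 0.0315 with the block). Kif23, Ect2, Racgap1 and Anln, which set the cleavage furrow, differed by 0.29 to 0.72 at 0 h and 0.15 to 0.61 at 24 h, none past the test.

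Mki67, the proliferation marker Ki-67, and Top2a, the topoisomerase that untangles sister chromatids, act on chromosome structure. Mki67 gave 1.31, 1.50 and 1.87 in WT cells and 3.04, 2.72 and 2.41 in Bach2-/- cells at 0 h. At 24 h Mki67 gave 1.14, 1.00 and 2.09 in WT cells and 2.49, 1.94 and 3.30 in Bach2-/- cells. The 0 h groups were apart by 1.16 ± 0.39, and the 24 h groups overlapped at 1.94 and 2.09, with a difference of 1.17 ± 0.39 (limma adjusted p 0.397 and 0.172, with the block 0.0766 and 0.0282). A second Mki67 probe gave 1.14 and 1.19. Top2a gave 0.10, -0.45 and -0.49 in WT cells and 1.35, 0.64 and 0.38 in Bach2-/- cells at 0 h, and 0.99, 0.27 and 0.81 against 1.53, -0.05 and 1.29 at 24 h. Top2a groups were apart at 0 h (1.07 ± 0.42) and overlapped at 24 h (0.23 ± 0.42), and passed at neither time.

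The second question was how the members changed over 24 h of anti-IgM. In WT cells few passed the test: Bub1b, Ckap2 (a spindle protein) and Bub1 rose and Ccnb2 fell, 4 of 37, while 21.9% of all genes passed (12.5% higher, 9.38% lower). The median change was 0.40 on the log2 scale, against 0.04 over all genes. Bub1b had the largest fitted change, 1.54 ± 0.43, 2.91-fold (limma adjusted p 0.0244), and Ccnb2 the lowest, -1.30 ± 0.33, 2.47-fold lower (limma adjusted p 0.0150). Ckap2 rose by 1.45 ± 0.32 and Bub1 by 1.09 ± 0.36 (limma adjusted p 0.00834 and 0.0493). Bub1 missed the threshold under 14 of the 23 alternatives, 9 of them among the 12 that leave out 1 array (limma adjusted p up to 0.201), and Bub1b under 5 (up to 0.0895). With the replicate block, 14 members were higher and 4 lower, while 27.9% of all genes were higher and 19.4% lower (47.3% in all). Without the doubted arrays 7 rose and 2 fell, while 15.5% of all genes rose and 11.0% fell (26.5% in all).

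In Bach2-/- cells Ckap2 rose by 1.10 ± 0.32 (limma adjusted p 0.0424) and no other member passed, while 14.0% of all genes did (5.92% higher, 8.11% lower). Ckap2 missed the threshold under 14 of the 23 alternatives, 9 of them leaving out 1 array (limma adjusted p up to 0.214). The median was 0.25, against 0.07 over all genes. Bub1b again had the largest fitted change, 1.24 ± 0.43, and Ccnb2 the lowest, -0.74 ± 0.33 (limma adjusted p 0.0848 and 0.184, with the block 0.00132 and 0.0427). With the block 5 were higher (Foxm1, Bub1b, Mad2l1, Cenpe and Ckap2) and 3 lower (Ccnb2, Cenpa and Ndc80), while 17.0% and 16.9% of all genes were (33.9% in all). Foxm1 rose by 0.82 by its main probe and by 0.09 by its dimmer probe. Without the doubted arrays 7 rose and 0 fell, while 8.96% of all genes rose and 6.39% fell (15.4% in all), and the median was 0.87.

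No member passed the test of the difference between the responses, with or without the block, and 0 passed at an unadjusted p under 0.05 (limma), while 0.343% of all genes passed the adjusted test and 5.09% passed it with the block. Its median was -0.11, and without the doubted arrays it turned to 0.42, with 32 of 37 members above 0 and 0 past the test (0.387% of all genes passed). With all arrays the estimates ran from -0.84 for Top2a to 0.96 for Ube2c, with standard errors of 0.36 to 2.39. Ube2c had a difference of -0.80 ± 0.38 over time in WT cells (limma adjusted p 0.173, 0.0249 with the block) and of 0.16 ± 0.38 in Bach2-/- cells, which were apart by 0.96 ± 0.54 (limma adjusted p 0.756). Each response used its own 6 arrays, and across the members their changes had a Pearson r of 0.79, with 25 above 0 in both and 6 below 0 in both. Each response shares its arrays with the genotype comparisons.

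**Figure D3:**
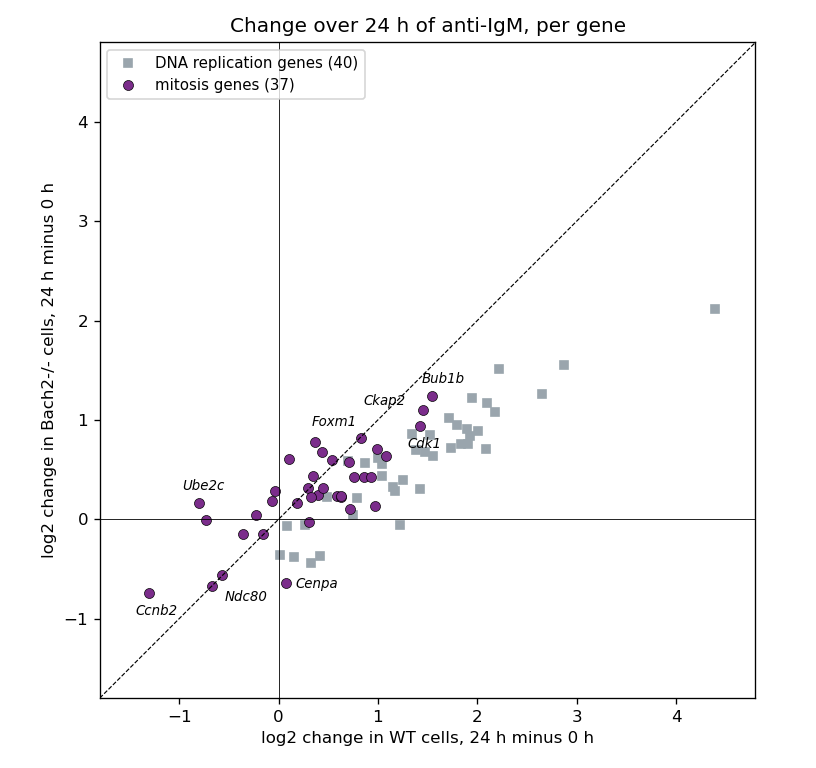
Log2 change over 24 h of anti-IgM in WT cells (x axis) against Bach2-/- cells (y axis) for the 37 mitosis genes tested (circles) and 40 genes of DNA replication (squares), 1 point a gene, with the line of equal change dashed. The mitosis genes lie around medians of 0.40 and 0.25, and the replication genes around 1.40 and 0.66, all of them below the dashed line with all arrays in the fit and 29 of 40 without the doubted arrays.

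Genes of DNA replication, the step before mitosis, are given for comparison. In WT cells 24 of 40 rose and 0 fell (12.5% and 9.38% of all genes did), with a median of 1.40, led by Orc1, a subunit of the origin recognition complex (4.39 ± 0.57, limma adjusted p 0.000341, well above background on 1 of 3 arrays at 0 h and 3 of 3 at 24 h). In Bach2-/- cells 1 of 40 rose, Orc1 (5.92% of all genes did), with a median of 0.66. Orc1 was well above background there on 2 of 3 arrays at each time. With the block 33 rose in WT cells and 15 in Bach2-/- cells (27.9% and 17.0% of all genes). Without the doubted arrays 21 rose in Bach2-/- cells, with a median of 1.28, and 29 in WT cells (8.96% and 15.5% of all genes). At 0 h the genotype difference of these genes had a median of 0.11 and 25 of 40 lay above 0 (54.2% of all genes did). Without the doubted arrays the 0 h median was -0.12 and 27 of 40 lay below 0. With all arrays their 24 h median was -0.76 and 39 of 40 lay below 0, with 0 past the test. With the block 21 were lower at 24 h (11.5% of all genes). The mitosis genes had a median of 0.59 in the same comparison, with 32 of 37 above 0. Without the doubted arrays the 24 h medians were -0.34 for replication genes, with 36 of 40 below 0, and 0.85 for mitosis genes.

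Other mitosis genes, 140 listed in 6 lists, were tested for 132. In WT cells 32 rose and 3 fell (median 0.56), or 24.2% and 2.27% of them against 12.5% and 9.38% of all genes. In Bach2-/- cells 14 rose and 4 fell (median 0.18), or 10.6% and 3.03% against 5.92% and 8.11%. With the block 66 rose and 10 fell in WT cells (27.9% and 19.4% of all genes did). In Bach2-/- cells 32 rose and 15 fell with the block (17.0% and 16.9% of all genes). Without the doubted arrays 48 rose and 4 fell in WT cells (15.5% and 11.0% of all genes). In Bach2-/- cells 33 rose and 2 fell without them (8.96% and 6.39% of all genes), with a median of 0.62. The kinetochore and centromere list had 13 of 37 up in WT cells, led by Cenpm (2.70 ± 0.39) and Cenpk (2.48 ± 0.53), subunits of the inner kinetochore. Wee1, the kinase that holds CDK1 inactive, rose by 2.15 ± 0.32 in WT and 1.54 ± 0.32 in Bach2-/- cells, and Cdc25b, a phosphatase that activates CDK1, fell by 2.04 in WT cells and fell by 3.13 in Bach2-/- cells on the log2 scale. Between genotypes at 24 h the median was -0.26, with 44 of 132 above 0, and -0.01 without the doubted arrays. With all arrays 2 genes passed, Kif18a and Mybl1 (3.21% of all genes did). With the block 7 were higher and 11 lower, against 8.13% and 11.5% of all genes. Kif18a, a kinesin of the chromosome congression step, was higher in Bach2-/- cells by 1.76 ± 0.35 (limma adjusted p 0.0179). Mybl1, which encodes A-Myb, was higher by 2.31 ± 0.37 (limma adjusted p 0.00517), but well above background on 2 of 3 Bach2-/- and 0 of 3 WT arrays at 24 h. With WT signals raised to the lowest signal well above background on their array, Mybl1 was 1.65-fold higher. At 0 h Mybl1 was the single gene of the 132 that passed (0.748% of all genes did), by 3.35 ± 0.37 (limma adjusted p 0.00146). It was well above background there on 3 Bach2-/- arrays and 1 WT array. With the block 7 of the 132 passed at 0 h, all higher, against 2.81% of all genes higher.

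Some transcripts used as markers of other cells differed with genotype beside the mitosis genes. The summed log2 signal of 12 plasma cell markers was 7.40 to 8.01 in WT and 8.85 to 9.65 in Bach2-/- cells at 0 h, and 7.29 to 8.13 against 8.36 to 9.17 at 24 h, with 3 of 11 tested higher at 0 h and 4 of 11 at 24 h, and 6 and 8 with the block. Of all genes 0.629% were higher at 0 h and 2.26% at 24 h, or 2.81% and 8.13% with the block. Lower were 0.119% at 0 h and 0.945% at 24 h, or 0.919% and 11.5% with the block. Without the doubted arrays 0.532% passed at 0 h in either direction, and at 24 h 2.04% were higher and 0.677% lower. These are the shares to set beside the marker counts here. Each sum adds unlogged signals, so bright genes weigh most. Ly6c1, the brightest plasma cell marker at 0 h, had means of 5.86 in WT and 8.24 in Bach2-/- cells there, and 3.21 and 6.46 at 24 h. Prdm1, the plasma cell factor Blimp-1, was higher by 3.38 ± 0.40 at 0 h and 4.94 ± 0.40 at 24 h (limma adjusted p 0.00248 and 5.74e-05). Sdc1 differed by -0.88 and 0.27, Xbp1 by 0.28 and 0.94 and Irf4 by -0.17 and -0.24, none past the test. Erythroid and platelet markers (15 on the array) summed to 3.73 to 4.48 in WT and 5.12 to 6.65 in Bach2-/- cells at 0 h, and to 3.70 to 3.92 against 4.29 to 5.44 at 24 h, with 1 and 4 of 12 tested higher (6 and 5 with the block, which also had 1 lower at 24 h, and 2 and 4 without the doubted arrays). The higher ones were Slc4a1 at 0 h and Hba-a1, Hbb-bt, Alas2 and Pf4 at 24 h. Car1, Car2, Ermap and Tfrc, well above background on all 12 arrays, passed at neither time. They differed by 0.40, -0.53, 0.10 and 0.26 at 0 h and by 0.68, -1.44, 0.32 and -0.12 at 24 h. The erythroid factor Gata1 was well above background on 3 Bach2-/- and 1 WT array at 0 h and on none at 24 h, and Klf1 on 2 Bach2-/- arrays at 0 h and none of the others. Neutrophil and precursor markers (14 on the array) summed to 3.54 to 4.99 in WT and 4.77 to 5.78 in Bach2-/- cells at 0 h, and to 0.87 to 4.13 against 3.57 to 5.71 at 24 h, with 0 and 1 of 10 tested higher. With the block 4 neutrophil markers were higher at each time, and without the doubted arrays 0 were. Mpo, a gene of their precursors, was well above background on 3 Bach2-/- arrays at 0 h, 1 at 24 h and no WT array. Others of that kind did not follow it. Elane was well above background on 3 WT and 2 Bach2-/- arrays at each time, and differed by -0.74 and -0.27. Ctsg was so on 2 WT and 2 Bach2-/- arrays at 0 h, and on 1 and 0 at 24 h. Prtn3 was so on 1 WT and 2 Bach2-/- arrays at 0 h, and on 0 and 1 at 24 h. Of the other marker lists, 4 of 12 T cell, 3 of 9 macrophage and monocyte and 2 of 10 germinal centre B markers tested were higher at 24 h, and 0, 1 and 1 at 0 h. With the block 6, 4 and 3 of them were higher at 24 h (and 3 germinal centre B markers lower), and without the doubted arrays 2, 1 and 3. Dendritic cell markers had 2 of 8 higher and 2 lower at 24 h and 0 at 0 h, with 3 higher under the block and 0 higher without the doubted arrays. NK cell (8 tested) and B progenitor markers (6 tested) had 0 at both times, but with the block 1 NK cell marker was higher at each time and 3 B progenitor markers were higher and 1 lower at 24 h. B cell markers (12 tested) had 0 at 0 h and 1 lower at 24 h, Cr2 (-2.06 ± 0.25, limma adjusted p 0.000766). With the block 1 B cell marker was lower at 0 h, and 5 were lower and 1 higher at 24 h. Whether transcripts listed as markers of other cell types came from such cells or from B cells was not tested. Their link to the mitosis genes' difference was not tested either.

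**Figure D4:**
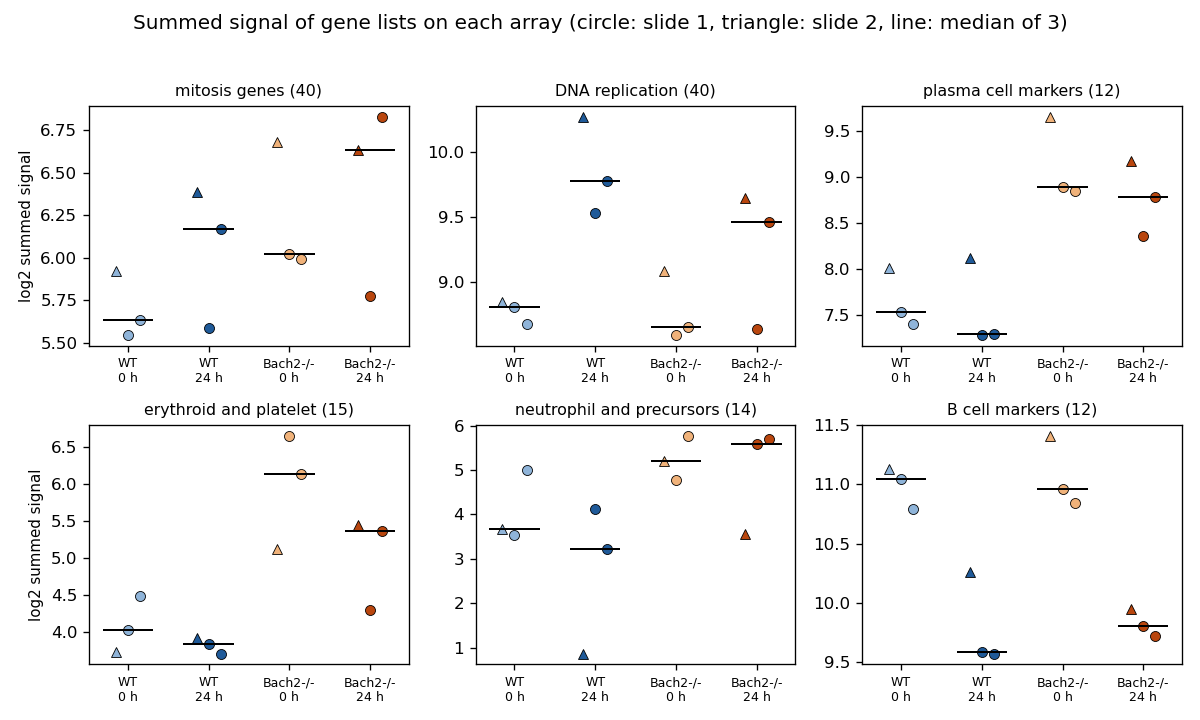
Log2 of the summed signal (relative to the array's 75th percentile) of 6 gene lists on each array of the 4 groups (own y scale for each panel, numbers of genes on the array in the titles). Circles are slide 1, triangles slide 2 and lines the median of 3 arrays. Bright genes weigh most in a sum, such as Ly6c1 among the plasma cell markers at 0 h. Plasma cell markers lie at 8.36 or above in Bach2-/- cells and at 8.13 or below in WT cells, and the summed mitosis genes have medians of 5.64 and 6.02 at 0 h and 6.17 and 6.63 at 24 h in WT and Bach2-/- cells.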

How the data were processed

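Total RNA was labelled with Cy3 and hybridised to 12 one-colour Agilent arrays. The authors extracted scanner signals using Agilent Feature Extraction, version 10.7.3.1, per the submitters' processing notes, and per the file headers the processed signal is an intensity after background subtraction. The deposited value table holds log2 values, and its scale and centring are not given in the sources used here. Set against the scanner signals its columns followed the log2 processed signal, centred on each probe's median (Pearson r 0.998 to 1.00 over 30433 probes), with column medians from -0.27 to 0.49, so direction and scale were found from the values.

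The processed signal of noncontrol spots without outlier flags was divided by the 75th percentile of its array, floored at 0.01 and taken to log2. A probe had to exceed background clearly on every array of 1 or more groups (30731 of 55681 did, 0 of them saturated), and 26413 probes were named through a RefSeq table of GRCm38.p6. The array annotation is on mm9 per the file headers, so coordinates here are those of the promoter table. Each gene was its brightest probe. Group means were fitted with limma 3.58.1 (R 4.3.3, Python 3.11.15) over 22742 genes. An exact permutation test of 3 arrays against 3 cannot go below p = 0.1.

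Replicate numbers come from the labels and also mark the slide, and the 18 same-number pairs of arrays had correlated deviations from their groups (r 0.467 to 0.89), against 0.246 to 0.643 in other pairs of a slide and -0.816 to -0.416 across slides. Counts from a fit with the number as a block are printed beside those of the fit without it where they differ for the members, the other mitosis genes and the marker lists compared between genotypes. The fit was checked on simulated data with independent arrays, so that check does not cover the correlated deviations given above. Alternatives were normalization, background, filter, probe choice, blocks, arrays and the value table. Members and lists were chosen with earlier results of these data known. All 40 members are named, and array values are given for Mki67, Cdk1, Ccnb1, Plk1, Aurkb, Foxm1, Top2a, members past a genotype test with or without the block, and the largest and smallest change of each response. Ckap2 and markers were named after their values were seen.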

Additional observations from a re-analysis of the deposited data

How the results depend on the processing

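Counts of members past the test depended on the settings, and each is out of 37 or fewer tested. For the WT response (4) the count was 2 with normexp background, 18 with the replicate block, 14 with the slide block and 9 without the doubted arrays (chosen after seeing the data), and 2 to 9 leaving out 1 array at a time. For the Bach2-/- response (1) it was 0 with no filter on dim probes, with only the compared groups in the fit, with quantile normalization and with the value table, 8 with the replicate block, 2 on slide 1 alone, 6 with the slide block, 7 without the doubted arrays, and 0 to 6 leaving out 1 array. At 0 h (0) it was 4 with the replicate block and 0 to 0 leaving out 1 array. At 24 h (2) it was 4 with normexp and with quantile normalization, 0 with only the compared groups, 11 with the replicate block, 6 with the slide block, 5 without the doubted arrays, and 0 to 5 leaving out 1 array. The difference of responses was 0 under every alternative run. Signs turned for Cdk1 in WT cells, to -0.34 with probes above background on all 12 arrays (another probe) and -0.245 without WT 0 h array 1 (-0.245 to 2.86 leaving out 1 array), and for Cenpa in Bach2-/- cells, to 0.036 without the doubted arrays; the cause was not tested beyond the change of probe. The median difference of responses ran from -0.31 to 0.42. The median genotype difference stayed between 0.32 and 0.93 at 0 h and between 0.34 and 0.85 at 24 h over the alternatives. Without the filter Ttk, Aurkb and Cenpf entered the fit, and Ttk rose in WT cells (1.77 ± 0.51, limma adjusted p 0.0457). Signals near background limit Aurkb, Cenpf, Ttk, Cdc25c and Kif2c.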
